A study of Mus musculus with 4 samples.

Results

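The 10 genes described here encode the transcription factors known to set the plasmacytoid dendritic cell (pDC) fate: the E proteins Tcf4, Tcf3 and Tcf12, the Id proteins Id2 and Id3, and the partner regulators Spib, Bcl11a, Zeb2, Irf8 and Cbfa2t3. They were picked by symbol from the probe sets annotated to exactly 1 gene symbol, and all 10 were found among the 19938 genes measured that way. Cbfa2t3 had 2 probe sets and the other genes 1 each, so 11 probe sets of 30177 carried them. None of these genes was named on a probe set shared with another gene.

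Mature pDCs were sorted from mouse spleens of 2 genotypes at steady state and profiled on whole-transcript GeneChip arrays, 1 array per sample. Flt3 KO mice lack the tyrosine kinase receptor through which FLT3 ligand promotes the formation of dendritic cells. The Flt3 KO group had 2 biological replicates, and wild type (WT) had 2. Spleens of both genotypes were digested with collagenase B and DNase. The construction of the Flt3 allele, the strain, age and sex of the mice, the sorting gate and any pooling of animals are unstated in these sources. The p-values therefore refer to these samples and not to a known number of animals, and the variance behind them was estimated in part across genes.

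Background for these genes is well established. E proteins are basic helix-loop-helix factors that bind DNA as dimers at E-box sequences, and Tcf4, also called E2-2, is required to form pDCs and to keep them from drifting towards a conventional dendritic cell state. Id proteins have the dimerisation helices without the DNA-binding basic region, so they pair with E proteins and hold them off DNA; Id2 favours conventional dendritic cells. Zeb2 and Cbfa2t3 are known to repress Id2 in the pDC lineage, Bcl11a acts upstream of Tcf4, and Spib and Irf8 are further factors of pDC development and function.

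In Flt3 KO pDCs Spib and Irf8 were lower than in WT pDCs, Id3 and Cbfa2t3 were higher, and Tcf4 and the other 5 genes did not pass the test. Of the 10 genes, 4 had a limma adjusted p under 0.05, 2 lower and 2 higher, where 2.39% of all 19938 genes did. All 10 lay above the median intensity of all genes, where calls were more frequent. With the genes below that median left out, 724 of 9969 genes passed, the same 4 among them. The changes were moderate: Id3 was 1.64-fold higher, Cbfa2t3 1.40-fold higher, Spib 1.38-fold lower and Irf8 1.24-fold lower. All differences below are Flt3 KO minus WT in log2 intensity, with limma's moderated standard error (SE) and p-values adjusted by the Benjamini-Hochberg method over all 19938 genes. The 4 calls rest on variance shared across genes. The groups did not overlap for these 4 genes, so leaving out 1 array could not turn their sign. With any 1 array left out none of the 4 passed (adjusted p from 0.0600 to 0.349), though each kept its sign; without an intensity trend in the variance none passed either (adjusted p from 0.0705 to 0.164). In these limma fits all 4 had an unadjusted p under 0.05, a level that 10.4% to 15.7% of all genes reached.

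**Figure D1:**
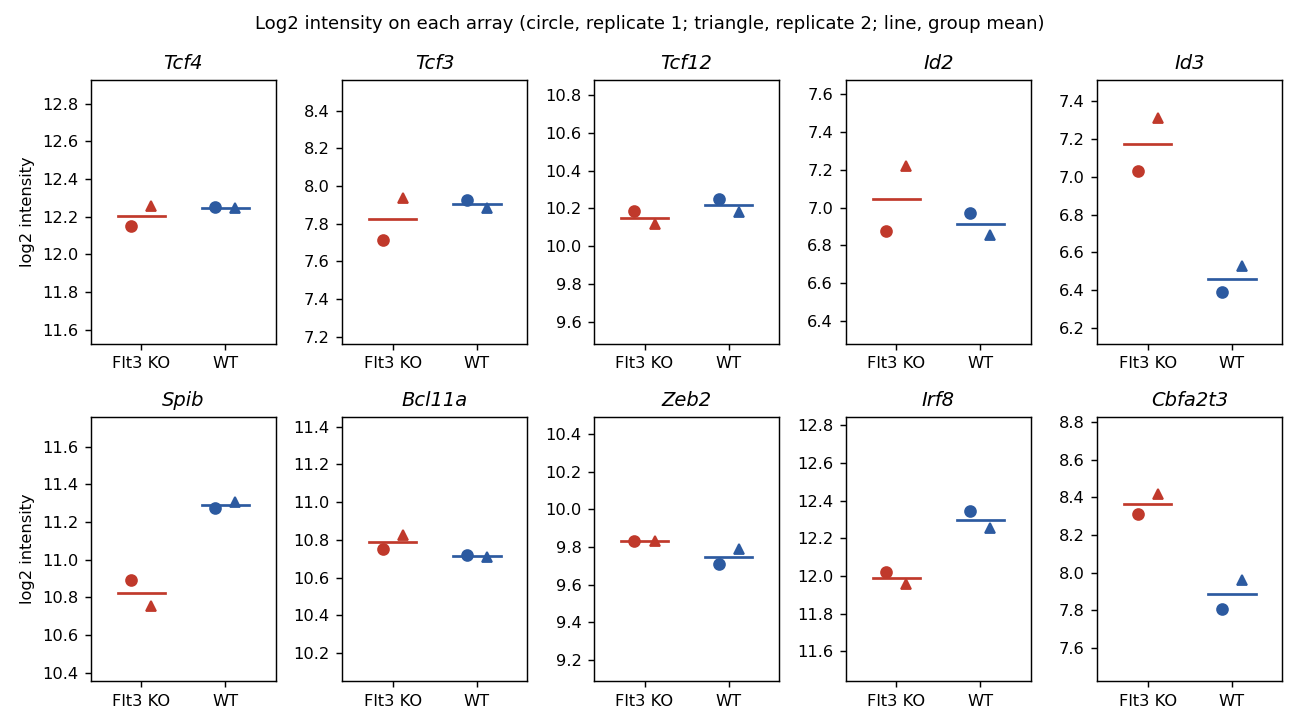
Log2 intensity of each gene on each array (vertical axis, 1.4 log2 units in every panel), Flt3 KO left of WT, with replicate 1 as a circle, replicate 2 as a triangle and the group mean as a line. Id3 and Cbfa2t3 lay higher and Spib and Irf8 lower on both Flt3 KO arrays than on either WT array; Tcf4, Tcf3, Tcf12 and Id2 overlapped between genotypes on this scale, and Tcf4 and Tcf12 did not after median centring.

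The sequence just upstream of an annotated start is shown for the 4 genes that passed, because E proteins and the Ets factor Spib bind known short motifs. Whether such motifs had a part in the 4 changes was not tested. Each line holds the 250 bases before the start that lies farthest upstream, read 5′ to 3′ on the gene's strand, from RefSeq on build GRCm38.p6. Capitals mark the E-box core CANNTG and the Ets core GGAA, both searched on both strands, so that TTCC is the Ets core on the opposite strand.
Spib, chr7:44532072-44532321, minus strand: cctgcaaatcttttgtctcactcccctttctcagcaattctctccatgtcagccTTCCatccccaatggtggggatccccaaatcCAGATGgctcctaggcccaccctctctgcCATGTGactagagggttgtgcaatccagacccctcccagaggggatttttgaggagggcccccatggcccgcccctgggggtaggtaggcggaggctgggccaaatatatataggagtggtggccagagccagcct
Irf8, chr8:120736108-120736357, plus strand: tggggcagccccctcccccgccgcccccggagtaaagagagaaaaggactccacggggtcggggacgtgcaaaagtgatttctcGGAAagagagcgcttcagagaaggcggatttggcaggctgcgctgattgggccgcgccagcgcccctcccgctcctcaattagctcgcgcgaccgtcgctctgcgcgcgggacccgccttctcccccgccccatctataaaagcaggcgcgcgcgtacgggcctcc
Id3, chr4:136143572-136143821, plus strand: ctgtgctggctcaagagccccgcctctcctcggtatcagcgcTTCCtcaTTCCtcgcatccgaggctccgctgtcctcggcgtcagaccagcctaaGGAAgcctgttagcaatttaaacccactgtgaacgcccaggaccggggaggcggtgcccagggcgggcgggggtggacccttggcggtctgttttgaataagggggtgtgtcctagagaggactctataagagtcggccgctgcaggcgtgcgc
Cbfa2t3, chr8:122699110-122699359, minus strand: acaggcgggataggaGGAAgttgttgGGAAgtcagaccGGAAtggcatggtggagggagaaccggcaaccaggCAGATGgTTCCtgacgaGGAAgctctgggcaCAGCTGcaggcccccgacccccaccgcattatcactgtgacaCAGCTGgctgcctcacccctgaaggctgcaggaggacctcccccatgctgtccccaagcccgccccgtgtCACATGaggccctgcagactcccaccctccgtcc

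In the windows shown, the E-box core occurred 2 times upstream of Spib and 4 times upstream of Cbfa2t3, with no match for Irf8 and Id3. The farther downstream start of Irf8 had 2 E-box cores in its window, and that of Cbfa2t3 had 1. The Ets core occurred 1 time each in the Spib and Irf8 windows shown, 3 times in that of Id3 and 5 times in that of Cbfa2t3. Of 16 windows from 9 of the genes (all but Tcf4, whose sequence was not used here), 9 held an E-box core, against 66.2% of the 32851 windows in the table, and 16 held an Ets core, against 93.4%. The E-box form CAGGTG, which Zeb factors bind and which overlaps the general E-box core, was in 2 of the 16 windows, the farther downstream start of Irf8 and that of Cbfa2t3, against 17.2% of all windows. The windows include several starts of a gene, some of which overlap, and a match is a run of letters, not a bound site.

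**Figure D2:**
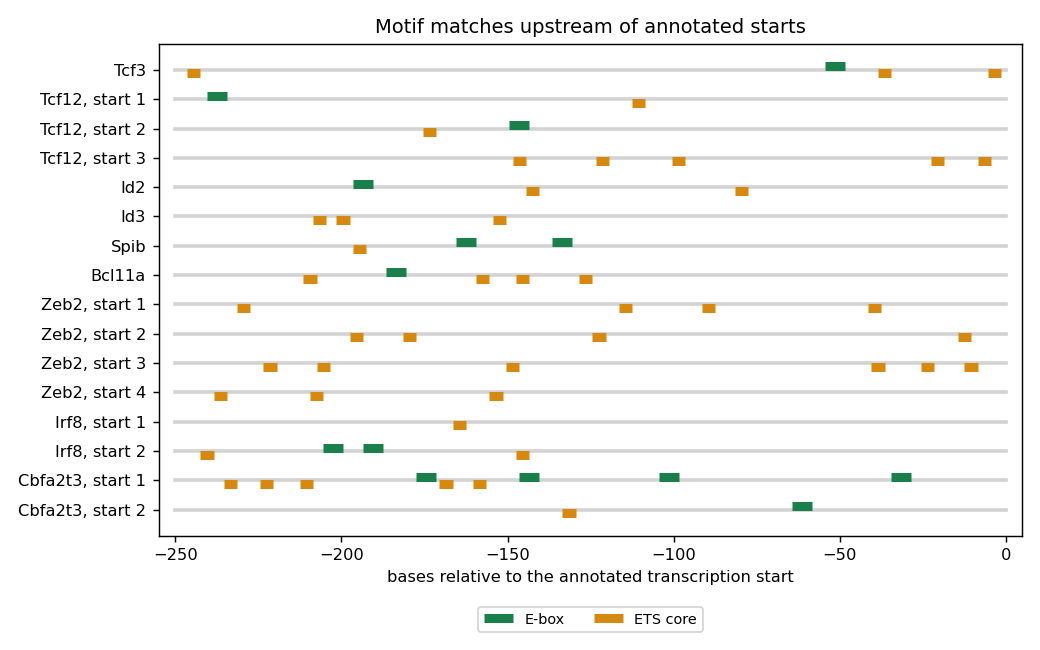
Positions of E-box cores (green) and Ets cores (orange) in the 250 bases before each annotated transcription start of 9 of the genes, with distance from the start in bases on the horizontal axis and 1 row per start. The first Cbfa2t3 start had 4 E-box cores and 5 Ets cores, and the Id3 start had 0 E-box cores.

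Facts of the arrays as a whole bear on all values. Flt3 itself read 8.46 and 8.61 (log2 intensity) on the Flt3 KO arrays, against 10.71 and 10.77 on the WT arrays, in the direction of the labels. The pDC surface genes Siglech and Bst2 were bright on all 4 arrays, between 12.51 and 12.93. Both read lower on the Flt3 KO arrays, with differences of −0.13 and −0.07, and neither passed (adjusted p = 0.127 and 0.349 in limma). They belong to a list of 22 pDC hallmark genes described below, of which 19 had a negative difference. Ptcra, of the same list, lay below the median log2 intensity of all genes. The median deposited intensity was 57.2 and 56.2 on the Flt3 KO arrays, against 55.1 and 55.3 on the WT arrays. In all, 476 genes passed, 215 higher (1.08% of those tested) and 261 lower (1.31%), and the split was 217 higher and 452 lower after each array was centred on its median. An array of sorted cells cannot tell fewer cells of a type from less RNA per cell.

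The E proteins did not pass the test. Tcf4 read 12.15 and 12.26 (log2 intensity, as for all genes below) in Flt3 KO pDCs, against 12.25 and 12.25 in WT pDCs. The Flt3 KO replicates lay on either side of the WT values, so the groups overlapped on the deposited scale. The difference was −0.04 (SE 0.046, adjusted p = 0.696 in limma), with a 95% interval from −0.15 to 0.07. The sign turned without Flt3 KO replicate 1 (0.01) and under quantile normalization (0.00050).

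Tcf3, which encodes E2A, an E protein best known for B cell development, had 7.71 and 7.93 in Flt3 KO pDCs, against 7.92 and 7.89 in WT pDCs. Its Flt3 KO replicates differed by 0.22, more than the genotypes did. The difference was −0.08 (95% interval −0.29 to 0.12, adjusted p = 0.699 in limma), and without Flt3 KO replicate 1 it was 0.03. Tcf12, which encodes HEB, an E protein known for its part in T cell development, had 10.18 and 10.12 in Flt3 KO pDCs, against 10.25 and 10.18 in WT pDCs. On the deposited scale the groups met at 10.18, where the upper Flt3 KO value and the lower WT value lay, and the difference was −0.07 (95% interval −0.19 to 0.06, adjusted p = 0.587 in limma).

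Of the Id genes Id3 rose and Id2 did not pass; whether their changes differ was not tested. Id3 had 7.03 and 7.31 in Flt3 KO pDCs, against 6.39 and 6.53 in WT pDCs. Both Flt3 KO values lay above both WT values, and the gap between the genotype means was 2.57 times the larger gap between replicates. The difference was 0.71 (SE 0.11, 95% interval 0.45 to 0.97, adjusted p = 0.0244 in limma), the largest in size among the 10 genes. Flt3 KO replicate 1 lay 0.58 and Flt3 KO replicate 2 lay 0.85 above the WT mean.

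Id2 had 6.87 and 7.22 in Flt3 KO pDCs, against 6.97 and 6.85 in WT pDCs. Flt3 KO replicate 2 was the high array, and Flt3 KO replicate 1 lay between the WT values. The difference was 0.13 (95% interval −0.15 to 0.42, adjusted p = 0.632 in limma), and without Flt3 KO replicate 2 it was −0.04. Its interval was the widest of the 10 and included a rise of up to 0.42.

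Because Id2 protein blocks E protein dimers, Id2 was also set against Tcf4 within each array. Relative to the WT mean, log2 Id2 minus log2 Tcf4 was 0.06 and 0.30 in Flt3 KO pDCs, against 0.06 and −0.06 in WT pDCs. Flt3 KO replicate 1 barely exceeded WT replicate 1, and only Flt3 KO replicate 2 lay clear of WT. The difference of 0.18 had an exact two-sided permutation p of 0.333, the smallest that 2 arrays against 2 can give, and was 0.0591 without Flt3 KO replicate 2.

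Spib and Irf8 were the genes that fell. Spib, an Ets family factor shared by pDCs and B cells, had 10.90 and 10.75 in Flt3 KO pDCs, against 11.28 and 11.31 in WT pDCs. The WT replicates lay within 0.03 of each other, and both Flt3 KO values were below them. Spib fell by 0.47 (SE 0.057, 95% interval −0.60 to −0.33, adjusted p = 0.0113 in limma), which was 3.27 times the larger replicate gap. It had the lowest p of the 10 genes and ranked 117 of 19938 by p. When all 30177 probe sets were tested together, Spib was the only one of the 10 still past the threshold (adjusted p = 0.0322), with Irf8 at 0.0538, Id3 at 0.0561 and Cbfa2t3 at 0.0669.

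Irf8, an interferon regulatory factor required for type 1 conventional dendritic cells and for normal pDC function, had 12.02 and 11.96 in Flt3 KO pDCs, against 12.34 and 12.25 in WT pDCs. The groups did not overlap, and the replicates of each genotype lay within 0.09 of each other. Irf8 fell by 0.31 (SE 0.046, 95% interval −0.42 to −0.20, adjusted p = 0.0215 in limma).

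Bcl11a, a zinc-finger factor needed for pDCs and B cells, had 10.75 and 10.83 in Flt3 KO pDCs, against 10.72 and 10.71 in WT pDCs. The Flt3 KO values were just above the WT values, and the difference was 0.08 (95% interval −0.04 to 0.19, adjusted p = 0.473 in limma). Zeb2, a zinc-finger repressor, had 9.83 and 9.83 in Flt3 KO pDCs, against 9.71 and 9.79 in WT pDCs. Here too the groups did not overlap on the deposited scale, and the difference was 0.08 (95% interval −0.04 to 0.21, adjusted p = 0.495 in limma). These gaps were about as large as the gap between replicates, 1.02 times for Bcl11a and 1.06 times for Zeb2.

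Cbfa2t3, also called Mtg16 or Eto2, encodes a corepressor that binds E proteins, and both of its probe sets were higher in Flt3 KO pDCs. The brighter probe set had 8.31 and 8.42 in Flt3 KO pDCs, against 7.81 and 7.96 in WT pDCs. The second probe set, 10582429, had 7.97 and 8.10 in Flt3 KO pDCs, against 7.64 and 7.55 in WT pDCs. Neither probe set overlapped between genotypes. On the brighter probe set Cbfa2t3 rose by 0.48 (SE 0.079, 95% interval 0.30 to 0.67, adjusted p = 0.0302 in limma). The second gave a difference of 0.44, a value from the same transcripts and the same 4 samples. With all probe sets tested together in limma, neither probe set of Cbfa2t3 passed (adjusted p = 0.0669 for the brighter and 0.0786 for the second). Its paralogs Cbfa2t2 and Runx1t1, named here by family and not by value, differed by −0.04 and −0.01 and did not pass (adjusted p = 0.911 and 0.979 in limma), with Runx1t1 below 5.89, the median log2 intensity of all genes. The other Id genes, Id1 and Id4, lay below the same median and differed by 0.07 and 0.10 (adjusted p = 0.828 and 0.646 in limma).

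**Figure D3:**
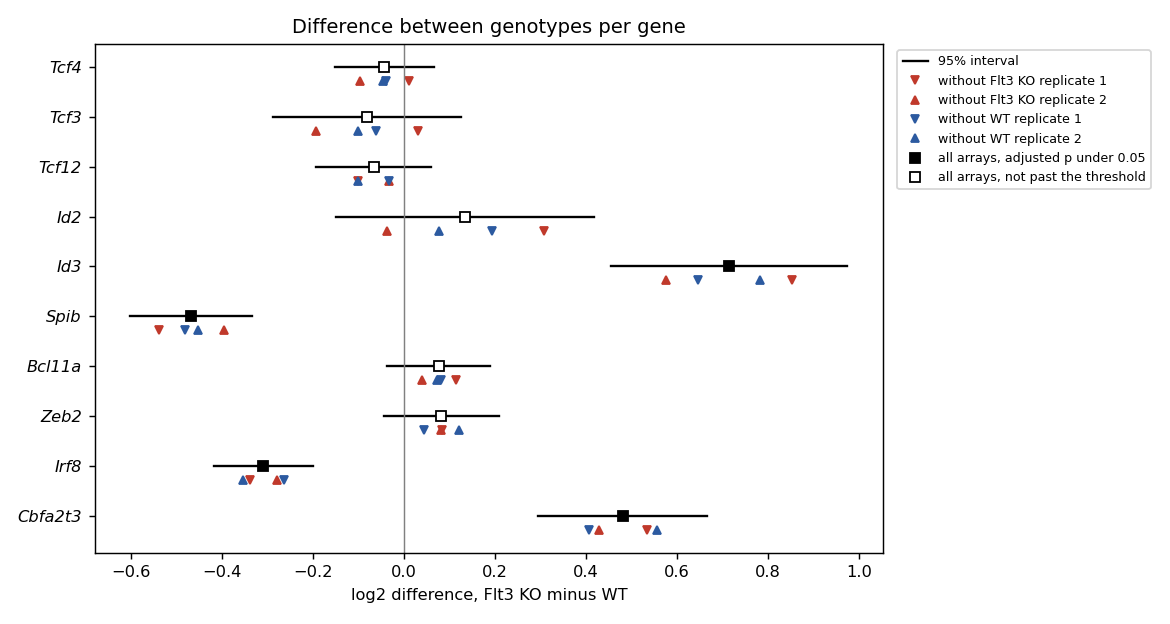
Difference of each gene, Flt3 KO minus WT in log2 intensity (horizontal axis), with its 95% interval; filled squares passed the threshold, and triangles below each interval are the difference with 1 array left out. The intervals of Id3, Spib, Irf8 and Cbfa2t3 lay clear of 0. Their triangles stayed on 1 side, as they must where the groups do not overlap. The triangles of Tcf4, Tcf3 and Id2 fell on both sides of 0.

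The genotypes were fully separated for 6 of the 10 genes, 4 higher (Id3, Cbfa2t3, Bcl11a and Zeb2) and 2 lower (Spib and Irf8). Of all genes 47.2% were separated, 21.9% higher and 25.3% lower. After each array was centred on its median the count was 6 again, with 2 higher and 4 lower, beside 49.5% of all genes. Bcl11a and Zeb2 then overlapped, and Tcf4 and Tcf12 were separated, both lower, so the separation or overlap of these 4 genes depended on the scaling. Over the 10 genes, 5 differences were positive and 5 negative, with a median of 0.02 beside −0.001 over all genes.

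Among the cells that a pDC sort could carry along, monocytes and macrophages had markers that were higher in Flt3 KO, part of them on replicate 2 only. On Flt3 KO replicate 1, Adgre1 (7.22) and Spic (7.30) lay below both WT arrays, and C1qb, Hmox1, Vcam1 and Mertk lay between them. On Flt3 KO replicate 2 all of these lay above both WT arrays. Of 19 markers measured, 17 had a positive difference and 6 rose, where 1.08% of all genes rose. All but 1 of the 19 lay above the median intensity of all genes, where calls were more frequent. Summed over the 19 markers, the intensity was 6619 and 8625 on the Flt3 KO arrays, against 5816 and 5367 on the WT arrays. Relative to the WT mean the median marker was at 0.19 in Flt3 KO replicate 1 and at 0.65 in Flt3 KO replicate 2. Without Flt3 KO replicate 2, the array with more of these markers, the differences were 0.58 for Id3, 0.43 for Cbfa2t3, −0.40 for Spib and −0.28 for Irf8. The part of these markers in the 4 changes was not tested. The 6 that rose were Cd14, by 1.08, Cx3cr1, by 1.03, Fn1, by 0.88, S100a4, by 0.87, Ccr2, by 0.70, and Lyz2, by 0.51, and the 2 with a negative difference were Cd68 (−0.11) and Fcgr1 (−0.04), neither past the threshold. No marker was listed at 0. B cells also use Spib, and of 10 B cell markers 8 had a negative difference and none passed in limma (4 at an unadjusted p under 0.05, where 17.1% of all genes were), with a summed intensity of 1114 and 1042 on the Flt3 KO arrays, against 1194 and 1171 on the WT arrays. Their part in the Spib difference was not tested. Among the other marker lists, type 2 conventional dendritic cells had 4 of 12 higher and 1 lower. Both conventional types had 2 of 10 higher and 1, Flt3 itself, lower. Plasma cells had 2 of 9 higher and 2 lower. Over all genes 1.08% passed as higher and 1.31% as lower. Before adjustment, 7 of the 12 type 2 markers had a limma p below 0.05, 6 of them with a rise (list median 0.18). All 10 markers of both conventional types did so, Flt3 included, 7 of them with a rise (median 0.27). Among plasma cell markers 5 of 9 did, 3 of them with a rise (median 0.05). Of all genes 17.1% reached that level. What these 3 lists contribute to the 4 changes was not tested. In limma 0 markers passed among T cells (7 measured), NK cells (9), type 1 conventional dendritic cells (10), neutrophils (9), erythroid cells (4), platelets and megakaryocytes (5) and progenitors (9), with 4, 1, 1, 2, 0, 1 and 4 at an unadjusted p under 0.05 in that order, beside the same 17.1% of all genes.

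Other genes of the same regulatory circuit were read from 5 lists, all drawn up with earlier results of these arrays known. Their counts are therefore not independent evidence of a direction. Most genes of each list lay above the median intensity of all genes, where calls were more frequent. With the genes below that median left out, 284 of 9969 genes passed as higher and 440 as lower. Of 20 other transcription factors of pDC development and function, 3 rose and 2 fell (median 0.05). Over all genes 1.08% passed as higher and 1.31% as lower. Runx1, which encodes a core-binding factor, rose by 0.60 (SE 0.077, adjusted p = 0.0131 in limma), with 8.82 and 9.01 in Flt3 KO pDCs, against 8.30 and 8.32 in WT pDCs. Stat5a, a signal transducer of cytokine receptors, rose by 0.58 and Spi1, which encodes the Ets factor PU.1, by 0.55. Spi1 moved opposite to its Ets relative Spib, with 9.28 and 9.46 in Flt3 KO pDCs, against 8.89 and 8.76 in WT pDCs (adjusted p = 0.0206 in limma). All 3 genes that rose read highest on Flt3 KO replicate 2, the array with more monocyte and macrophage markers. The part of those markers in these rises was not tested. Cxxc5, a CXXC zinc-finger gene, fell by 0.37, and Irf7, the interferon regulatory factor that drives interferon-α genes, fell by 0.30 with an adjusted p of 0.049995 in limma, at the edge of the threshold.

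Transcription factors of conventional dendritic cells had 3 of 15 that rose, 0 that fell and a median of 0.12. The shares of all genes were 1.08% higher and 1.31% lower. Klf4, a Krüppel-like factor, rose by 0.44, the repressor gene Bcl6 by 0.42, and Notch2, a receptor whose signal shapes splenic type 2 conventional dendritic cells, by 0.25 (adjusted p = 0.0215, 0.0221 and 0.0498 in limma). The remaining 12 did not pass. Of 11 transcription factors of B and T lymphocytes, Xbp1, a regulator of secretory cells, fell by 0.25 (adjusted p = 0.0423 in limma) and 10 did not pass (median 0.09).

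Corepressors and dimer partners of E proteins gave no call: 0 of 19 passed in limma, with 5 at an unadjusted p under 0.05, 2 of them higher, where 17.1% of all genes were, and a median of −0.04. The lowest p-values were those of the CtBP corepressor gene Ctbp2, a partner of Zeb factors (0.35, adjusted p = 0.104), and the histone deacetylase genes Hdac3 (−0.31, adjusted p = 0.142) and Hdac1 (−0.16, adjusted p = 0.205). Of 22 pDC hallmark genes, 9 fell and 1 rose, with a median of −0.24, where 1.31% of all genes fell and 1.08% rose. The 6 with the lowest adjusted p all fell: Gpm6b by 1.15, Rpgrip1 by 0.78, Cox6a2 by 0.76, Tlr7, a receptor for single-stranded RNA, by 0.49, Ccr9, a chemokine receptor, by 0.43, and the glutamate receptor gene Grm8 by 0.49. The gene that rose was Cd209d, by 0.37 (adjusted p = 0.0129 in limma). Like the other lists, this list was drawn up with earlier results of these arrays known, so its count is not independent evidence of its direction.

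**Figure D4:**
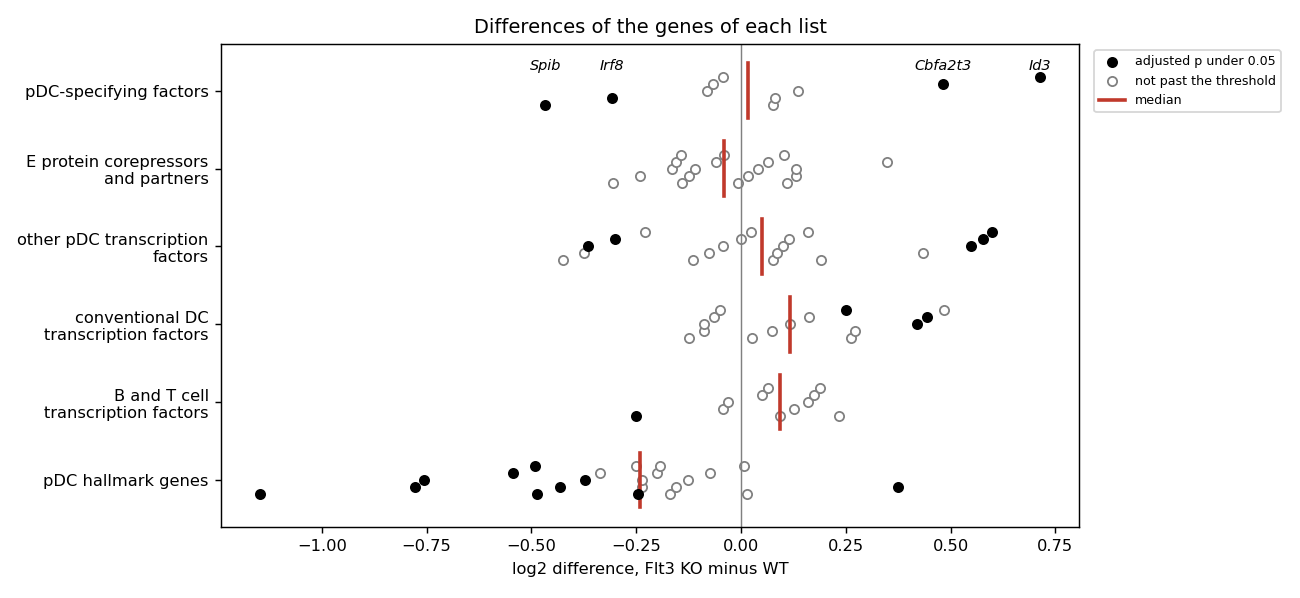
Differences of the genes of each list, Flt3 KO minus WT in log2 intensity (horizontal axis), 1 point per gene, filled where the adjusted p was under 0.05, with the list's median as a red line. The 10 factors spread from −0.47 for Spib to 0.71 for Id3 around a median of 0.02, while the pDC hallmark genes had a median of −0.24.

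The genes whose profile over the 4 arrays lay closest to each changed factor were found by the root mean square distance of log2 values centred on their own mean, among 9485 named genes above the median intensity. For Spib they were Gna11, Nek6 and Adssl1, at distances of 0.0128 to 0.0150. For Irf8 they were Myzap, Man1c1 and Nbn (0.0104 to 0.0126), of which Man1c1 passed the genotype test. For Id3 they were Tent5a, Marveld1 and Rab31 (0.0231 to 0.0274), and for Cbfa2t3 they were Cttnbp2nl, Atp2b1 and Rtl5 (0.0118 to 0.0208). With 4 arrays such closeness mostly restates a genotype difference of like size, which ranged from 0.67 to 0.73 for the 3 nearest Id3 and from −0.48 to −0.46 for the 3 nearest Spib.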

How the data were processed

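The authors deposited 1 table of processed linear intensity values, 30177 probe sets by 4 arrays. How background correction, summarisation and scaling were done is not given in the sources used here, and no detection call accompanied the values; the number of arrays limits the precision. Platform annotation gave 21789 probe sets 1 symbol, 1621 several and 6767 none. Per gene the single-symbol probe set with the highest mean was kept (19938 genes). All 10 genes matched the RefSeq table of GRCm38.p6, used for names and promoter sequences only, since no build is named for the arrays.

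Intensities were converted to log2 and tested in R 4.3.3 with limma 3.58.1 (lmFit, eBayes with an intensity trend, no covariate, no filter, threshold an adjusted p under 0.05), after a test on simulated data. Alternatives covered scaling, an added constant of 16, dim genes, variance, probe sets, the replicate number and leaving out each array. The labels do not say that replicate numbers mark a shared litter or day, so the numbers were not treated as pairs. The deviations of same-numbered replicates were uncorrelated across genes (r = −0.02). Genes outside the 10 came from 17 lists, 200 of 221 entries measured. In the 5 lists of factors, partners and hallmark genes up to 6 past the threshold were named by adjusted p, otherwise the 3 with the lowest p. Cd209d, Siglech, Bst2 and Ptcra were named besides, as were Cbfa2t2, Runx1t1, Id1 and Id4 by family. Markers of other cells were counted, and the monocyte and macrophage markers named were picked after their values were seen. The genes and lists were chosen with earlier results of these data known.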

Additional observations from a re-analysis of the deposited data

How the results depend on the processing

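The differences of Id3, Spib, Irf8 and Cbfa2t3 kept their sign under all 13 alternatives, most of which could not turn it. The filter on dim genes, the variance settings, all probe sets tested together and the replicate block leave a difference unchanged by construction. Leaving out 1 array, adding a constant or averaging probe sets cannot turn a sign where the groups do not overlap. Only quantile normalization and median centring could have turned these signs. The 4 calls held under quantile normalization, median centring, an added constant of 16, a filter on dim genes, robust variance, averaged probe sets and the replicate block. No call held without the intensity trend (0 of the 10 genes past the threshold, 108 of all genes), and 1 held with all probe sets tested together (291 probe sets past it). With the dim genes left out 724 genes passed. Leaving out 1 array left 0 to 54 genes past the threshold and 0 of the 10 in each fit, each with 1 residual degree of freedom, while 4 or 5 of the 10 had an unadjusted p under 0.05 in limma (10.4% to 13.5% of all genes) and 7 to 10 of the 10 did not overlap (72.2% to 74.6% of all genes), since a lone array has no spread. The Id2 minus Tcf4 difference ranged from 0.0591 to 0.297 in those fits. Signs turned for Tcf4 (−0.0969 to 0.0109 with an array left out, and 0.00050 when quantile-normalized), Tcf3 (−0.192 to 0.0297) and Id2 (−0.0378 to 0.307), each through a Flt3 KO array; none of the 3 passed in any fit. With the replicate number as a block, 375 genes passed, and the differences of the 10 genes were the same by construction, with adjusted p-values of 0.0122 for Id3, 0.0113 for Spib, 0.0151 for Irf8 and 0.0236 for Cbfa2t3. The cause of the changed counts was not tested.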
